A study of Mus musculus with 12 samples.

Results

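The mouse genes whose symbols begin with Zfp and a number encode zinc finger proteins, mostly of the C2H2 type, in which a pair of cysteines and a pair of histidines hold a zinc ion in each finger. The members were taken as every detected array probe with such a symbol, leaving out Zfp318 and the Zfp36 group. Zfp36 and its relatives bind AU-rich messenger RNA through a different kind of finger. The array annotated 593 probes of 326 such genes, of which 305 probes of 207 genes were detected, among 19715 detected probes and 10050 tested genes in all. The rule uses no measured value beyond the detection step, though the set was chosen with earlier results of these data known.

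The B cells came from the spleens of C57BL/6 mice 8 weeks of age, and their RNA was hybridised to Illumina bead arrays. All cells, controls included, carried a deletion of 1 E2A (Tcf3) allele and had been activated with CD40L and IL-4, with LPS present during infection. All had been infected with a retrovirus that expressed GFP and a form of E12, a product of E2A and a transcription factor of the basic helix-loop-helix class, and were sorted by GFP fluorescence. There were 4 groups of 3 arrays: cells with the wild-type form of E12 and cells with the mutant form, either left untreated or given anti-IgM for 3 h. Anti-IgM crosslinks the B cell antigen receptor, and the series title describes the mutant E12 as resistant to calmodulin, a calcium sensor. E12 came from a virus on top of the remaining E2A allele, and no group without a virus was used here. Nothing in the labels says that the arrays of a group came from separate mice or cultures, so the p-values measure the spread between these arrays, which may be technical.

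Most C2H2 zinc finger proteins bind DNA, each finger reading a few bases. The largest subfamily in mammals carries a KRAB domain, which recruits the corepressor TRIM28 and, through it, the histone methyltransferase SETDB1, and many of its members silence retroelements. Other Zfp proteins lack KRAB and act as activators, chromatin cofactors or RNA-binding proteins, and a few work on ribosomes.

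Values are given as log2(intensity + 50) after the 12 arrays had been quantile-normalized together, and differences are log2 differences with the standard error (SE) of a limma fit to 3 arrays per group. The Benjamini-Hochberg adjustment of p-values ran over all 10050 genes, and a gene is called rising or falling at an adjusted p under 0.05. The authors had normalized the arrays of the 2 E12 forms apart, so a difference between forms and that step cannot be told apart.

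Of the 9 B cell markers with a named probe, 8 were detected, among them Cd79b, Ms4a1, Cd22 and Cd74, while Pax5 had a probe that was not detected. Their summed intensity was 74870 to 98670 with wild-type E12 untreated, 70840 to 74910 after anti-IgM, 63790 to 68630 with mutant E12 untreated and 59580 to 63180 with mutant E12 and anti-IgM. In untreated cells 6 were called lower with the mutant, and Blnk was higher by 0.74 (limma adjusted p = 0.0209). After anti-IgM 4 were lower and 0 higher. Cd74, at a mean level of 15.55, was not called between the forms in either state. Of 7 T cell markers, 2 were detected, and Cd3e, Cd3d, Cd3g, Cd4 and Cd8a were not. The 2 summed to 835.5 to 1319 and 786.2 to 955.7 with wild-type E12 and to 1526 to 2002 and 1448 to 2151 with mutant E12. Both were called higher with the mutant after anti-IgM, and 0 in untreated cells. The 7 detected myeloid markers of 10 summed to 1017 to 2842 in the untreated wild-type group, 833.6 to 1204 after anti-IgM, and 571.2 to 737.3 and 535.3 to 831.3 in the mutant groups, with the highest value on the array of untreated wild-type replicate 1. They did not move as 1: after anti-IgM 4 were called lower with the mutant, while Mpeg1 was higher by 2.02 (limma adjusted p = 2.33e-05). The 4 plasma cell markers summed to 9423 to 10610 and 8267 to 9318 with wild-type E12 and to 15050 to 19710 and 13160 to 19000 with mutant E12. Of 5 NK cell markers only Prf1 was detected, at 3812 to 5835, 1467 to 1977, 683.1 to 1501 and 713.7 to 2588 in the same order. The part of these markers in the results was not tested, and in bulk RNA fewer cells of a type and less RNA per cell cannot be told apart.

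Of the 326 annotated Zfp genes, 207 (63.5%) had a detected probe, against 52.7% of the 19057 genes on the array. On all 12 arrays 150 of the 207 were detected, and 57 on 3 to 11 arrays. For 31 of the 207, no array of at least 1 group was above the detection limit. These entered the set through the other groups. As a class they were dim: the median level of the 207 was 6.88, against 7.61 for all tested genes, where the detection limit lay between 5.98 and 6.04. The range ran from 5.87 to 11.19. The brightest by mean level were Zfp362 at 11.19, Zfp330 at 10.62, Zfp131 at 10.29, Zfp263 at 9.89 and Zfp639 at 9.83. Each of these is the level of 1 probe, and levels of different probes are not comparable as amounts of RNA. The median SD within a group was 0.16, 0.10, 0.14 and 0.15 in the 4 groups.

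Antigen receptor crosslinking moved few Zfp genes in cells with wild-type E12. Of 207, 32 changed (15.5%), where 31.3% of all tested genes did. The 18 that rose were 8.7% of the Zfp genes against 15.1% of all genes, and the 14 that fell were 6.76% against 16.2%. The median log2 change was 0.01 for the Zfp genes and -0.02 for all genes, and the Zfp changes ran from -1.27 to 0.69. Only Zfp608 changed by 1 log2 unit or more. In 38 Zfp genes (18.4%) all 3 treated arrays were above all 3 untreated ones, where 23.7% of all genes showed this, and in 37 (17.9%) all were below, where 26.7% did. The count of 32 fell to 20, 21 and 21 without treated replicates 1, 2 and 3, where 22.8%, 23.6% and 23.8% of all genes were called. With limma's array weights it was 77, where 51.7% of all genes were called.

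**Figure D1:**
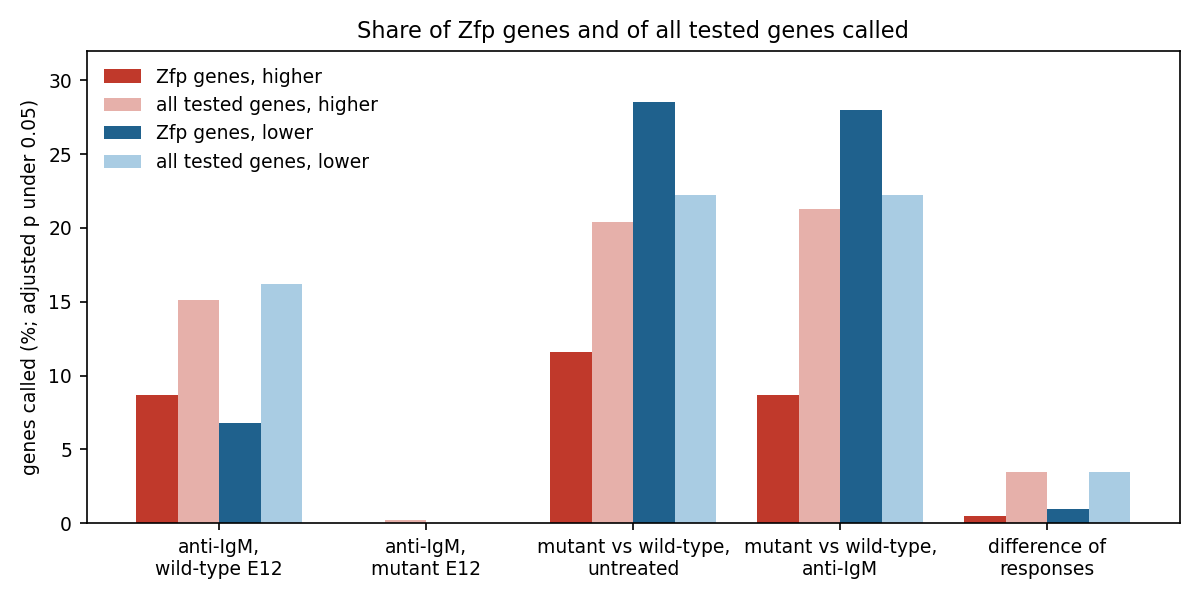
Share of the 207 Zfp genes (dark bars) and of all 10050 tested genes (pale bars) called higher or lower at an adjusted p under 0.05, in percent, for the 5 comparisons. In the wild-type response the Zfp bars reach 8.7% and 6.76% against 15.1% and 16.2%, and in both comparisons of the E12 forms the Zfp genes lean to lower levels with the mutant.

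Dim genes are harder to call, so the shares were also read within 4 equal bins of mean level, a split added after seeing the data. From the dimmest bin to the brightest, 6.56%, 15.9%, 23.6% and 22.2% of Zfp genes changed in the wild-type response, against 11.5%, 30.2%, 39.8% and 44.8% of the other genes. The bins held 61, 82, 55 and 9 Zfp genes, so the brightest bin rests on few. The Zfp share was below that of the other genes in each of the 4 bins.

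**Figure D2:**
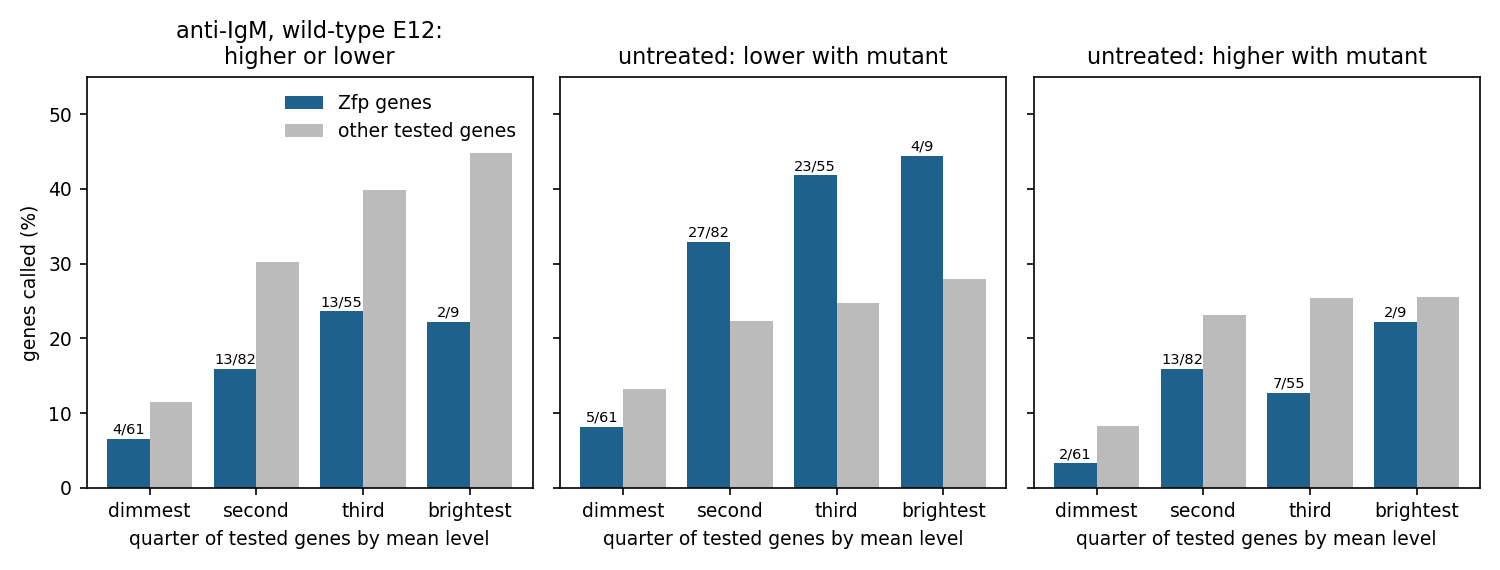
Share of Zfp genes (blue) and of other tested genes (grey) called, in percent, within 4 equal bins of tested genes by mean level, with the count of Zfp genes called over those in the bin above each blue bar. The wild-type response is on the left, with 6.56% to 23.6% of Zfp genes called, and genes lower and higher with mutant E12 in untreated cells are in the middle and on the right.

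The largest fall was that of Zfp608, a nuclear regulator without a KRAB domain that represses Rag genes in mouse thymocytes. Its level was 10.19, 10.56 and 10.26 on the untreated wild-type arrays and 8.28, 9.39 and 9.54 after anti-IgM. The groups did not overlap, and replicate 1 of the treated group was the lowest by about 1 unit. The change was -1.27 ± 0.25 (SE, n = 3 per group; limma adjusted p = 0.00167). With mutant E12 the level was 8.70, 8.46 and 8.66 untreated and 8.68, 8.36 and 8.82 treated, a change of 0.01 ± 0.25. All 6 mutant arrays thus lay below the 3 untreated wild-type arrays and within the range of the treated ones. The 2 other detected Zfp608 probes fell with anti-IgM too, by -0.67 and -0.68 (adjusted p = 0.00612 and 0.0361).

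Among the genes that rose, Zfp747 and Zfp764 are near neighbours in the RefSeq gene order, in a run of 7 Zfp members with at most 3 coding genes between them. Zfp747 measured 7.74, 7.73 and 7.84 untreated and 8.53, 8.50 and 8.30 after anti-IgM with wild-type E12, a rise of 0.68 ± 0.12 (adjusted p = 0.000508). With mutant E12 it measured 7.58, 7.40 and 7.59 untreated and 7.34, 7.41 and 7.55 treated. The treated wild-type arrays were therefore above all 9 others. Zfp764 measured 5.72, 6.35 and 6.65 untreated and 6.66, 7.14 and 6.87 treated with wild-type E12, a rise of 0.65 ± 0.19 (adjusted p = 0.0201). The lowest of these values was untreated replicate 1, and without it the rise was 0.39 with an adjusted p of 0.0743. The other 5 members of the run did not pass the test.

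By the brightest probe of each gene, Zfp239 had the largest rise. It measured 7.03, 7.61 and 7.40 untreated and 7.90, 8.09 and 8.11 treated, a change of 0.69 ± 0.17 (adjusted p = 0.00605). On the mutant arrays its level was 6.86, 6.64 and 6.64 untreated and 7.37, 6.85 and 7.33 treated, which is 0.47 ± 0.17 with the lowest adjusted p of any Zfp gene in that response, 0.339. Within each state all 3 mutant arrays were below all 3 wild-type ones. The further rises called among the 10 largest were Zfp930 (0.55 ± 0.13), Zfp655 (0.55 ± 0.14), Zfp27 (0.52 ± 0.13) and Zfp24 (0.51 ± 0.13), with adjusted p from 0.00593 to 0.0097. Zfp27 and Zfp940 (0.44) were the only rises in the run of 9 neighbouring Zfp members that starts with Zfp84 and Zfp30. A further probe of Zfp27 rose as well, by 0.41 (adjusted p = 0.0219).

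Zfp genes that work on RNA or ribosomes were read from a list of 14, of which 10 were tested. In the wild-type response 3 rose and 0 fell, beside 15.1% and 16.2% of all genes, with a list median of 0.08 beside -0.02 for all genes. Zfp593, whose yeast and human counterparts act in the late steps of large ribosomal subunit assembly, measured 6.19, 6.13 and 6.35 untreated and 7.06, 6.81 and 6.81 treated. That was a rise of 0.67 ± 0.12 (adjusted p = 0.000692) from near the detection limit. On the mutant arrays it was 6.50, 6.66 and 6.39 untreated and 6.47, 6.50 and 6.46 treated, between the 2 wild-type groups. Zfp598, a ubiquitin ligase that marks collided ribosomes, rose by 0.50 ± 0.14 (adjusted p = 0.0154), from 6.52, 6.87 and 6.99 to 7.13, 7.31 and 7.44. Zfp106, an RNA-binding protein, rose by 0.39 ± 0.11 (adjusted p = 0.0161). Without untreated wild-type replicate 1, Zfp598 and Zfp106 stood at 0.36 and 0.31 with adjusted p of 0.0606 and 0.052. Zfp622, which also serves the large ribosomal subunit, differed by 0.05 ± 0.13, and the brightest probes of the other 6 tested members did not pass either. Dimmer probes of 2 of them did. For Zfp330, a nucleolar protein, the brightest probe changed by 0.28 (adjusted p = 0.273), while its other probe rose by 0.90 (adjusted p = 0.000512). For Zfp207 the brightest probe changed by 0.12 (adjusted p = 0.581), while its other probe fell by 0.45 (adjusted p = 0.0433).

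Of the Zfp factors that act in transcription or chromatin without a KRAB domain, 22 of 30 listed were tested, and 1 rose and 4 fell after anti-IgM with wild-type E12, beside 15.1% and 16.2% of all genes. Zfp91, a ubiquitin ligase of the non-canonical NF-kB pathway, rose from 8.20, 8.44 and 8.38 to 8.84, 8.79 and 8.77, by 0.46 ± 0.14 (adjusted p = 0.0238). Without untreated replicate 1 its adjusted p was 0.0739. Zfp219, a DNA-binding factor, fell from 8.55, 8.38 and 8.44 to 7.72, 7.82 and 7.83, by -0.67 ± 0.12 (adjusted p = 0.000625), and the mutant arrays lay at 7.60 to 7.69 untreated and 7.30 to 7.65 treated. As with Zfp608, the mutant arrays sat at or below the treated wild-type level in both states. Zfp710 changed by -0.82 ± 0.21 (adjusted p = 0.00718), and its probe in mutant cells gave -0.52 ± 0.21 (adjusted p = 0.415). Zfp292, a large DNA-binding zinc finger factor, changed by -0.59 ± 0.17 (adjusted p = 0.0146), and 2 of its 3 other probes fell as well, by -0.68 and -0.57. Without untreated wild-type replicate 1 the main Zfp292 probe gave -0.40 with an adjusted p of 0.058.

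The other falls called among the 10 largest were Zfp524 (-0.91 ± 0.24), Zfp810 (-0.83 ± 0.23), Zfp101 (-0.72 ± 0.18), Zfp280b (-0.70 ± 0.20), Zfp212 (-0.68 ± 0.14) and Zfp579 (-0.61 ± 0.13), with adjusted p from 0.00176 to 0.0154. Zfp524 and Zfp579 are neighbours. Zfp524 measured 7.91, 8.18 and 8.12 untreated and 7.08, 7.41 and 7.01 treated, and Zfp579 measured 8.33, 8.47 and 8.71 untreated and 7.83, 7.92 and 7.92 treated. Zfp212 fell from 9.97, 9.59 and 9.71 to 9.07, 9.24 and 8.93, but its 4 other, dimmer probes changed by -0.27 to 0.09 and none passed the test. For Zfp810, leaving out untreated replicate 1, which read 7.63 against 6.95 and 6.80, gave -0.57 with an adjusted p of 0.0571. Zfp280b gave -0.46 with an adjusted p of 0.0875 without treated replicate 1. Over the 12 called genes with more than 1 detected probe, 15 of 20 other probes had the sign of the main one, 6 passed the test with that sign and 0 passed with the opposite sign.

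**Figure D3:**
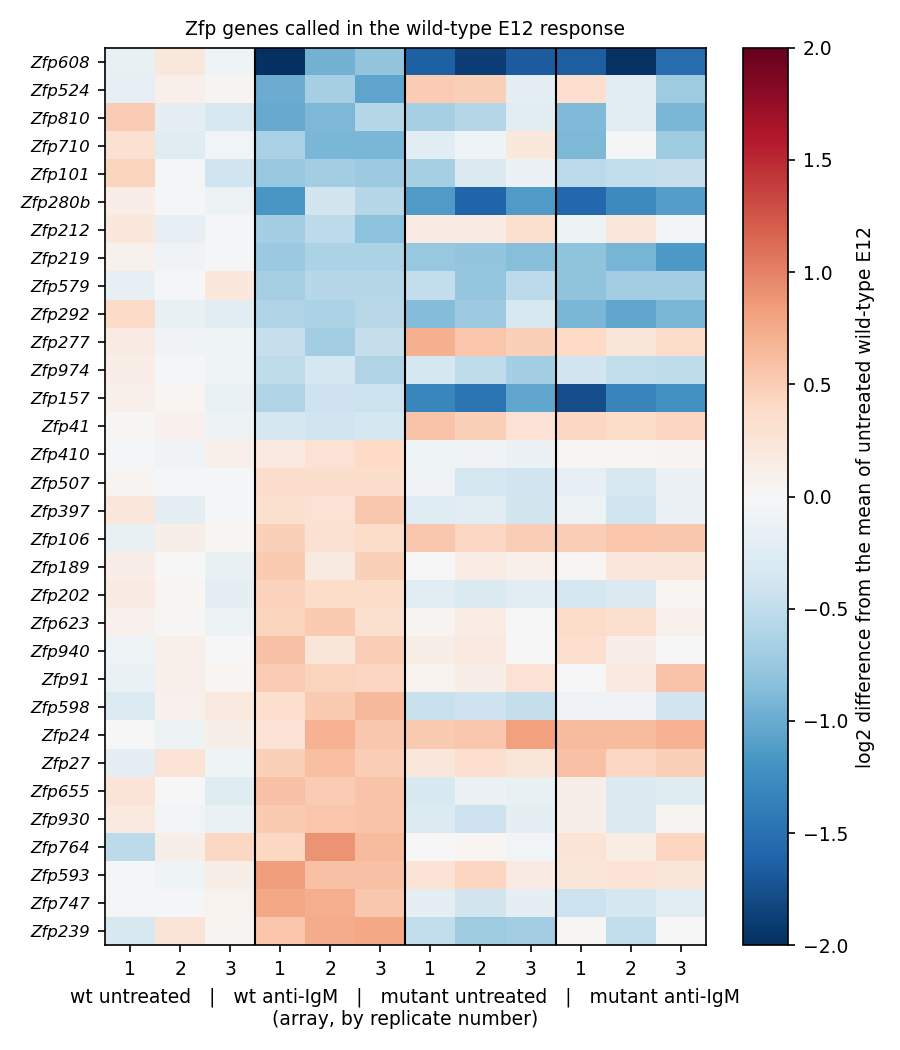
The 32 Zfp genes called in the wild-type response (rows, ordered by their change) on each of the 12 arrays (columns, by group and replicate number). Colour is the log2 difference from the mean of the untreated wild-type arrays, with red above and blue below it. Zfp608, Zfp280b, Zfp219 and Zfp157 are blue on the untreated mutant arrays as well.

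No Zfp gene passed the test in the anti-IgM response with mutant E12, where 0.229% of all genes did (23 genes, by limma). At an unadjusted p under 0.05 there were 8 Zfp genes (3.86%) and 922 genes in all (9.17%). With limma's array weights 6 Zfp genes were called, where 7.13% of all genes were. The changes ran from -0.52 to 0.47. In 10 Zfp genes (4.83%) the treated arrays were all above the untreated ones, and in 9 (4.35%) all below, against 6.59% and 5.5% of all genes. Of the 18 genes that rose with wild-type E12, 16 had a positive difference with the mutant, with a median of 0.08 against 0.48. Of the 14 that fell, 12 had a negative one, with a median of -0.16 against -0.67. These 2 responses share no array. Across the 207 genes they correlated at Pearson 0.433 and Spearman 0.389, and across all genes at 0.619 and 0.564. The points share the arrays of their groups and are not independent.

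The difference between the responses, tested as the interaction term, passed for 3 Zfp genes (1.45%), where 6.95% of all genes passed. The difference was positive for 1 of them, against 3.48% of all genes, and negative for 2, against 3.46%. For Zfp608 the response with mutant E12 exceeded the wild-type one by 1.28 ± 0.36 (adjusted p = 0.0461). For Zfp747 it was lower by -0.77 ± 0.16 (adjusted p = 0.0119), and for Zfp593 by -0.71 ± 0.17 (adjusted p = 0.0214). The 2 other Zfp608 probes gave 0.66 and 0.81 with adjusted p of 0.113 and 0.174. The dimmer Zfp330 probe passed as well, with -0.86 (adjusted p = 0.0313), where the brighter one gave -0.19 (adjusted p = 0.741). Of the 3, Zfp747 passed under every alternative tried, with each of the 12 arrays left out included. With the replicate number as a block within each form, which pairs arrays by number as the main fit does not, 5 Zfp genes passed (14% of all genes). The main count fell to 1 without untreated wild-type replicate 2 (5.07% of all genes) or without untreated mutant replicate 2 (4.25%).

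**Figure D4:**
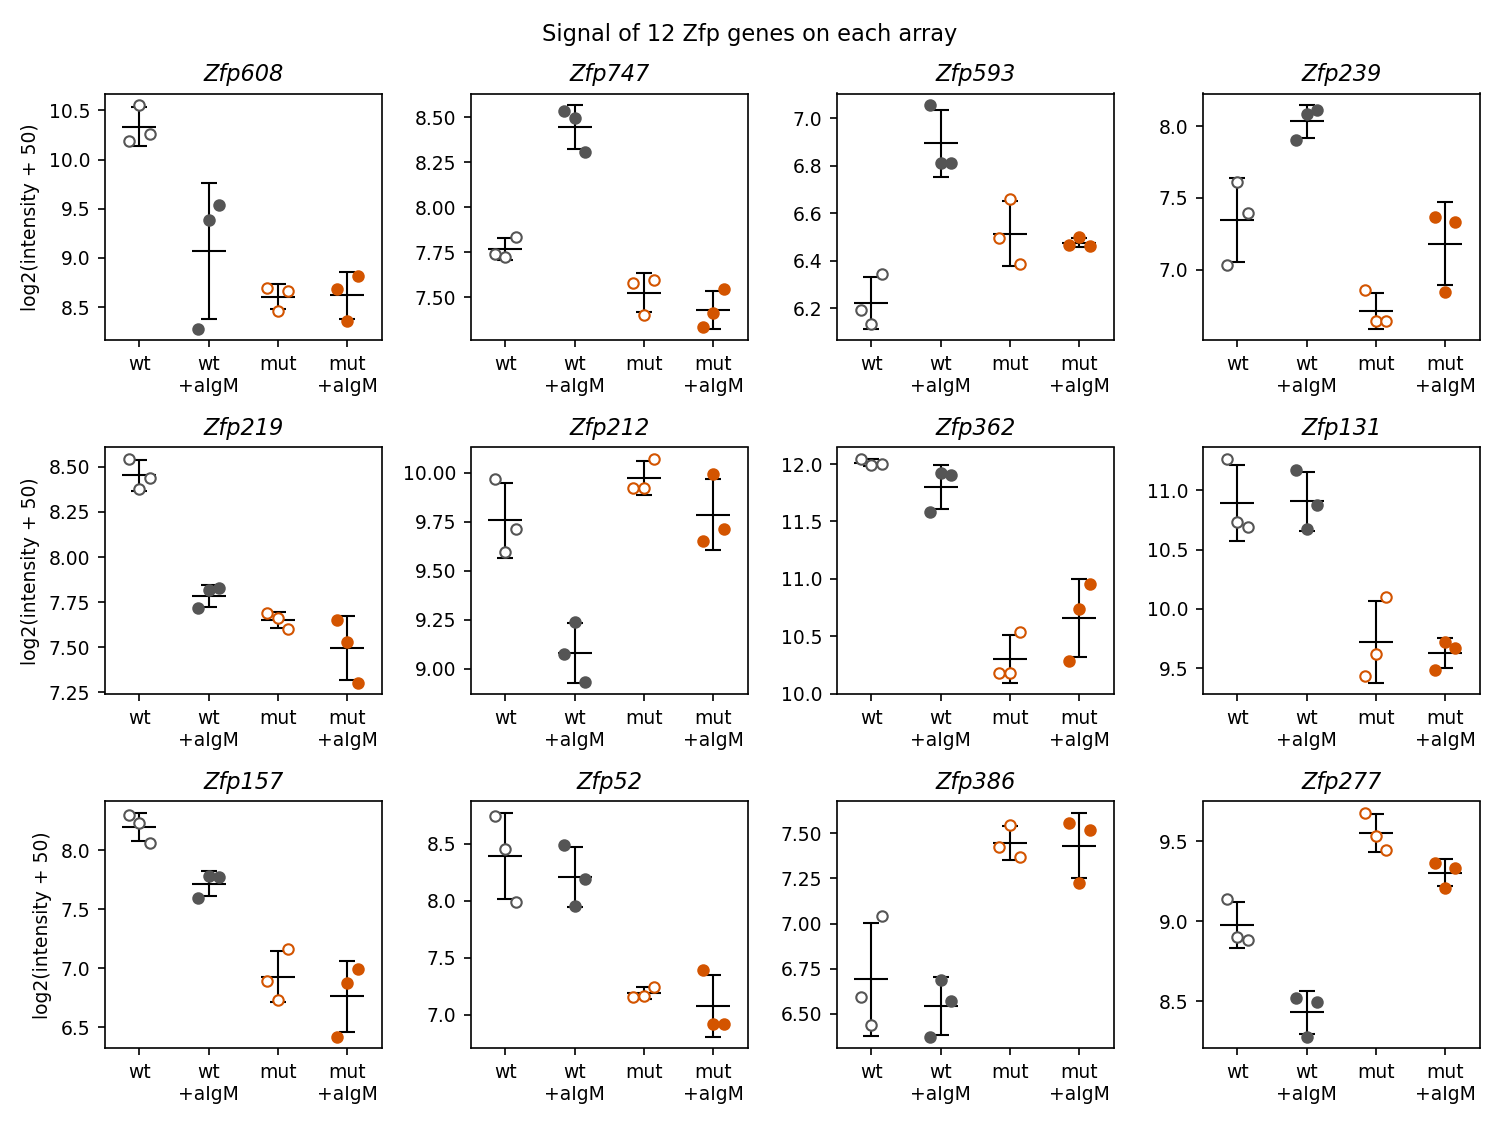
Level of 12 Zfp genes on each array, as log2(intensity + 50), with open points for untreated cells, filled points for anti-IgM, grey for wild-type E12 and orange for mutant E12. Bars are the mean ± SD of 3 arrays, and each vertical axis has its own range. The treated wild-type arrays stand above all others for Zfp747 and Zfp593, and all mutant arrays stand below the untreated wild-type arrays for Zfp608.

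Cells with mutant E12 had lower levels of many Zfp genes than cells with wild-type E12. In untreated cells 83 of 207 differed (40.1%), about the share of all tested genes (42.6%), but the directions were uneven. With the mutant, 59 were lower (28.5%, against 22.2% of all genes) and 24 higher (11.6%, against 20.4%). The median difference was -0.15 for the Zfp genes and 0.01 for all genes. Tcf3, the gene of E12 itself, was higher with the mutant by 1.68 ± 0.35 (adjusted p = 0.00153) untreated and 1.55 ± 0.35 (adjusted p = 0.00249) after anti-IgM. In sum B cell markers were lower and plasma cell and T cell markers higher (ranges above), though not every B cell or T cell marker was called so. The part of Tcf3 and of these markers in the lean was not tested. After anti-IgM 76 differed (36.7%, against 43.5%): 58 were lower (28.0%, against 22.2%) and 18 higher (8.7%, against 21.3%), with medians of -0.17 and -0.01. In untreated cells 14 of 207 were lower by 1 log2 unit or more and 0 were higher by that much, and after anti-IgM 6 and 0. Of all 10050 tested genes, 546 were lower and 470 higher by that much untreated, and 547 and 599 after anti-IgM. The Zfp share of such large falls was thus slightly above that of all genes untreated and below it after anti-IgM. In 77 Zfp genes (37.2%) the 3 untreated mutant arrays were all below the wild-type ones and in 27 (13.0%) all above, against 25.4% and 24% of all genes. After anti-IgM these counts were 82 (39.6%) and 27 (13.0%), against 29.9% and 28.2%.

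The split depended in size on how the arrays were scaled to each other. With every array scaled to a common median in place of quantile normalization, 36 Zfp genes were higher and 51 lower in untreated cells, so 41.4% of calls were higher in place of 28.9%. After anti-IgM there were 28 higher and 44 lower calls, 38.9% in place of 23.7%. The 87 Zfp calls untreated stood beside 49.7% of all genes called, and the 72 after anti-IgM beside 48.5%. That scaling moved the median of all genes to 0.18 and 0.17, and the Zfp median lay 0.24 and 0.25 below it. In each of 10 settings lower calls outnumbered higher ones in both states, a split that was not counted for all genes in those settings. The Zfp median lay below that of all genes by 0.06 to 0.28 untreated and by 0.07 to 0.25 after anti-IgM. In a count added after seeing the data, under all 3 scalings (quantile, common median, and the deposited values as they stand), 50 Zfp genes were lower in untreated cells (24.2%, against 13.2% of all genes) and 22 higher (10.6%, against 19.7%). After anti-IgM 44 were lower in all 3 (21.3%, against 12.6%) and 17 higher (8.21%, against 20.7%).

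The lean was also read by mean level, in the same 4 bins. In untreated cells 8.2%, 32.9%, 41.8% and 44.4% of Zfp genes were lower with the mutant from the dimmest bin to the brightest, against 13.2%, 22.3%, 24.7% and 28% of the other genes. The higher calls were 3.28%, 15.9%, 12.7% and 22.2%, against 8.24%, 23.1%, 25.4% and 25.5%. In the dimmest bin the Zfp share was thus below that of the other genes in both directions, and from the next bin on it was above for lower calls. After anti-IgM the lower calls were 13.1%, 31.7%, 38.2% and 33.3% against 10.9%, 23.1%, 26.4% and 27.8%.

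The 2 comparisons of the forms share no array, but both carry the authors' separate normalization of the forms. The part of that step in their overlap was not tested, and the same overlap was not counted for all genes. Of the 59 lower in untreated cells and the 58 lower after anti-IgM, 44 were in both (74.6% and 75.9% of each list). Of the 24 and 18 higher, 13 were in both (54.2% and 72.2%), and 0 genes were called in opposite directions. The differences of the 207 genes correlated at Pearson 0.818 and Spearman 0.809 between the states, and those of all genes at 0.776 and 0.734. Under all 3 scalings and in both states 29 genes were lower and 12 higher by their brightest probe, again without a count for all genes. The 12 include Zfp207 and Zfp277, each with another probe called lower in untreated cells.

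**Figure D5:**
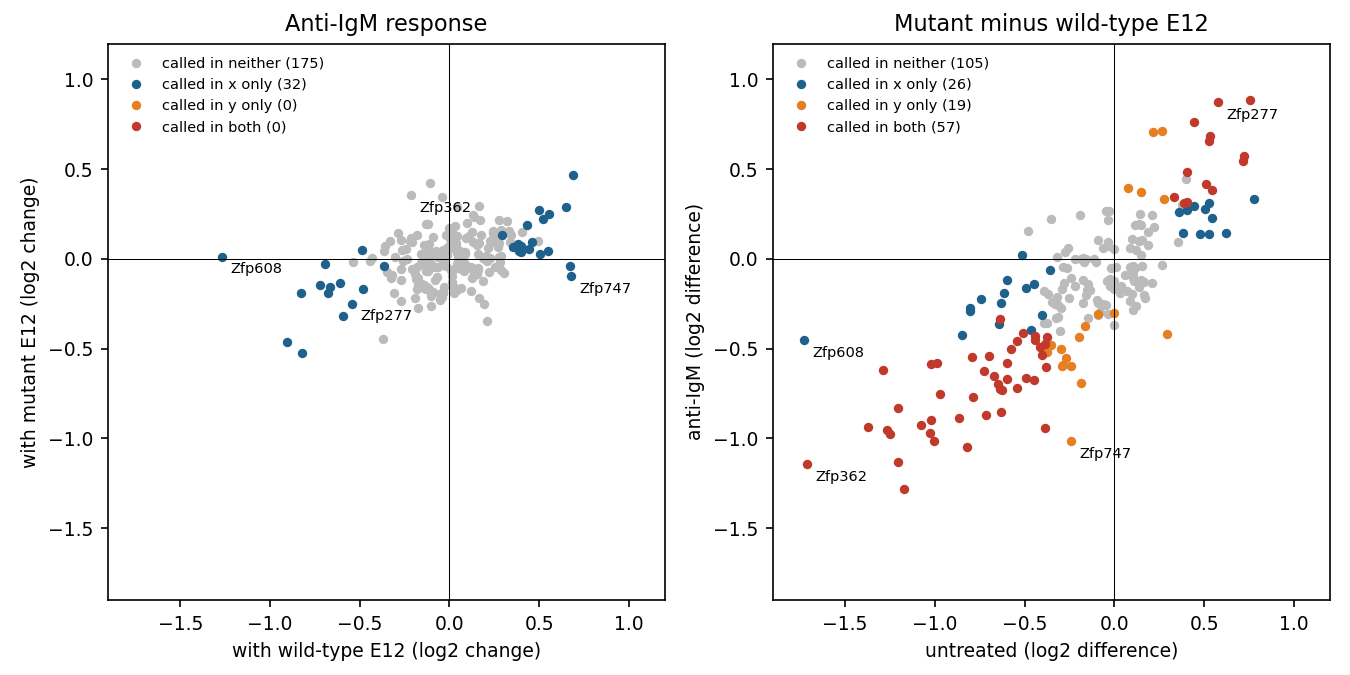
Log2 differences of the 207 Zfp genes in comparisons that share no array, each point a gene. On the left, the anti-IgM response with wild-type E12 against that with mutant E12, where 32 genes are called on the x axis and 0 on the y axis. On the right, mutant minus wild-type E12 in untreated cells against the same after anti-IgM, where 57 genes are called in both and most of them lie at the lower left.

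The brightest Zfp gene, Zfp362, a close relative of the transcription factor Zfp384, was also among the most different. It measured 12.05, 11.99 and 12.00 with wild-type E12 and 10.18, 10.18 and 10.54 with the mutant in untreated cells, a difference of -1.71 ± 0.17 (adjusted p = 3.23e-06). After anti-IgM it measured 11.58, 11.92 and 11.90 against 10.28, 10.73 and 10.95, a difference of -1.14 ± 0.17 (adjusted p = 8.67e-05). The forms did not overlap in either state. With common median scaling in place of the quantile step the treated value was -0.27 (adjusted p = 0.219), and with the deposited values as they stand to -0.38 (adjusted p = 0.0849). Zfp131, which pairs fingers with a BTB domain and acts as an activator, measured 11.27, 10.73 and 10.69 against 9.44, 9.62 and 10.10 untreated, and 11.17, 10.68 and 10.88 against 9.48, 9.72 and 9.67 treated. Its differences were -1.17 ± 0.19 and -1.28 ± 0.19 (adjusted p = 0.000269 and 0.000116). With common median scaling the untreated one was -0.46 (adjusted p = 0.0652). Among bright genes the size of a difference between forms thus depended on the scaling.

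Zfp608 had the largest difference in untreated cells, -1.73 ± 0.25 (adjusted p = 0.000107), and its other probes gave -0.83 and -1.32. After anti-IgM the difference was -0.45 ± 0.25 (adjusted p = 0.17). Zfp280b measured 9.28, 9.12 and 9.04 against 8.02, 7.54 and 8.01 untreated, a difference of -1.29 ± 0.20 (adjusted p = 0.000154), and -0.62 ± 0.20 after anti-IgM (adjusted p = 0.0204). Zfp84 measured 9.64, 8.86 and 8.75 against 7.56, 7.70 and 7.88 untreated, a difference of -1.37 ± 0.19 (adjusted p = 5.69e-05), and -0.94 after anti-IgM. The wild-type value of 9.64 was that of untreated replicate 1.

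Zfp157, a KRAB zinc finger gene studied in the mouse mammary gland, fell in the wild-type response and was lower with the mutant. Of the 14 falls called in the wild-type response 13 were called under all 3 scalings, and Zfp157 was not among these. It measured 8.30, 8.23 and 8.06 with wild-type E12 and 6.89, 6.73 and 7.16 with the mutant in untreated cells, then 7.60, 7.78 and 7.78 against 6.42, 6.88 and 6.99 after anti-IgM. The differences were -1.27 ± 0.16 and -0.95 ± 0.16 (adjusted p = 2.68e-05 and 0.000236). Zfp52 measured 8.74, 8.45 and 7.99 against 7.16, 7.16 and 7.25 untreated and 8.48, 7.96 and 8.19 against 7.39, 6.92 and 6.92 treated, with differences of -1.21 ± 0.19 and -1.13 ± 0.19. Its neighbours Zfp948 and Zfp760 were lower in untreated cells as well. Neither was above the detection limit on any untreated mutant array, so the differences are bounds against that limit, at least 1.07-fold for Zfp948, measured on 2 of 3 wild-type arrays, and at least 1.19-fold for Zfp760. After anti-IgM Zfp948 was again below the limit on all mutant arrays and at least 1.23-fold lower there. Zfp948 passed the detection filter through wild-type arrays alone, so its p-values are not used as support. Neighbouring Zfp genes arose by duplication, and how far their probes share sequence was not tested.

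The remaining genes among the 10 largest in untreated cells were Zfp512b (-1.25 ± 0.20), Zfp236 (-1.21 ± 0.25) and Zfp692 (-1.08 ± 0.16), with adjusted p from 8.98e-05 to 0.00133. After anti-IgM they were Zfp715 (-1.04 ± 0.15), Zfp513 (-1.01 ± 0.12), Zfp747 (-1.01 ± 0.12), Zfp512b (-0.98 ± 0.20) and Zfp317 (-0.97 ± 0.14), with adjusted p from 1.1e-05 to 0.00134. Zfp513, known from mouse and human as a factor of the developing eye, measured 8.44, 8.73 and 8.72 against 7.58, 7.68 and 7.61 untreated and 8.69, 8.58 and 8.74 against 7.54, 7.82 and 7.61 treated. All 6 mutant values were below all 6 wild-type ones. Other probes of Zfp715, Zfp513 and Zfp317 did not pass the test after anti-IgM.

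Genes higher with mutant E12 were fewer, and their differences smaller. Zfp386, a KRAB gene also known as Kzf1, measured 6.60, 6.44 and 7.04 against 7.42, 7.55 and 7.37 untreated and 6.37, 6.69 and 6.57 against 7.56, 7.22 and 7.52 treated. The differences were 0.76 ± 0.16 and 0.89 ± 0.16 (adjusted p = 0.00156 and 0.000431), with no overlap in either state. Zfp277, a cofactor of Polycomb repression, fell after anti-IgM with wild-type E12 and higher with the mutant in both states. It measured 9.14, 8.90 and 8.88 against 9.68, 9.53 and 9.44 untreated, and 8.52, 8.28 and 8.50 against 9.37, 9.21 and 9.33 treated. The differences were 0.58 ± 0.12 and 0.87 ± 0.12 (adjusted p = 0.0017 and 6.25e-05). A further Zfp277 probe near the detection limit gave -0.32 in untreated cells (adjusted p = 0.0364), against the main probe.

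Zfp3 and Zfp473 were dim with wild-type E12 and differed by 0.72 ± 0.12 and 0.71 ± 0.12 untreated and by 0.57 ± 0.12 and 0.55 ± 0.12 after anti-IgM (adjusted p from 0.000229 to 0.00187). Zfp473, whose human counterpart takes part in histone pre-mRNA processing, measured 6.35 ± 0.16 against 7.07 ± 0.10 untreated (SD, n = 3). Its other detected probe, at a mean level of 6.51, differed by 0.07 and 0.26 and did not pass (adjusted p = 0.659 and 0.0934). Zfp64, an activator lacking KRAB, gave 0.53 and 0.69, and its 2 other probes passed as well, with 0.64 and 0.63 untreated and 0.62 and 0.57 treated. Zfp41 measured 6.35, 6.31 and 6.34 against 7.11, 7.07 and 7.12 after anti-IgM, a difference of 0.77 ± 0.11 (adjusted p = 7.8e-05). Zfp658 was not above the detection limit on any untreated wild-type array and was at least 1.53-fold higher with the mutant, while its 2 other probes did not pass. The 3 untreated mutant arrays alone met the detection filter for Zfp658, so its p-value is not used as support. Further genes among the largest were Zfp24 (0.62), Zfp738 (0.54) and Zfp954 (0.53) in untreated cells, and Zfp212 (0.70), Zfp637 (0.66), Zfp871 (0.48) and Zfp955a (0.42) after anti-IgM. The 4 other Zfp212 probes did not pass.

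By role, the list of RNA and ribosome genes had 3 members higher and 3 lower with the mutant in untreated cells and 2 higher and 4 lower after anti-IgM, of 10 tested, beside the same 20.4% and 22.2% and 21.3% and 22.2% of all genes. Zfp598 was lower in both states, by -0.45 ± 0.14 and -0.67 ± 0.14 (adjusted p = 0.0209 and 0.00159). Zfp346, which binds double-stranded RNA, was lower by -0.49 and -0.67. The untreated Zfp346 difference lost its call in 7 of 22 alternatives, common medians and the deposited values included. For Zfp207, a spindle assembly and splicing factor, the brightest probe was higher with the mutant by 0.54 and 0.38, but another probe was lower by -0.72 and -0.41 (adjusted p = 0.00208 and 0.0487). For Zfp326, a splicing-linked nuclear protein, the brightest probe differed by -0.85 in untreated cells, and 2 dimmer probes by 0.31 and 0.69 (adjusted p = 0.0471 and 0.00436). No direction is therefore given for these 2 genes, though the counts of the list, made by brightest probe, include them. Over the 35 genes called in untreated cells that had further probes, 34 of 47 such probes had the sign of the main one, 16 passed the test with it and 4 passed against it.

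Of the 22 tested factors without KRAB, 2 were higher and 8 lower in untreated cells, and 2 higher and 5 lower after anti-IgM. All tested genes gave 20.4% and 22.2% untreated and 21.3% and 22.2% after anti-IgM, so the lower count after anti-IgM was near the background. Zfp281, a repressor known from stem cells, was lower by -0.57 ± 0.11 and -0.50 ± 0.11 (adjusted p = 0.000621 and 0.00159), and Zfp219 by -0.80 ± 0.12 untreated (adjusted p = 9.93e-05). With common medians the Zfp281 difference after anti-IgM lost its call (adjusted p = 0.0691). Zfp644, a partner of G9a and GLP histone methyltransferases in human cells, was lower by -1.02 ± 0.19 and -0.58 ± 0.19 (adjusted p = 0.00064 and 0.022). The Zfp644 difference after anti-IgM lost its call in 4 of 22 alternatives, common medians included. Zfp335, known for its need in T cell maturation and neural progenitors, was lower by -0.64 and -0.34 (adjusted p = 0.00095 and 0.041), and the difference after anti-IgM lost its call in 10 of 22 alternatives, common medians (-0.19, adjusted p = 0.228) and the deposited values (-0.27, adjusted p = 0.0911) included. Zfp609, the close relative of Zfp608, went the other way, higher by 0.39 and 0.31 (adjusted p = 0.012 and 0.037). After anti-IgM the Zfp609 difference lost its call in 5 of 22 alternatives (adjusted p up to 0.143), the deposited values included. Of 6 listed genes that silence imprints or retroelements, only Zfp809 was tested. Zfp809 recognises the primer binding site of murine leukaemia virus, and it was lower by -0.41 ± 0.13 and -0.49 ± 0.13 (adjusted p = 0.0225 and 0.00872). Zfp568 and Zfp819 had a probe but were not detected.

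The partners through which KRAB zinc finger proteins repress were read from a list of 29, of which 22 were tested. In the wild-type response 5 rose and 5 fell, beside 15.1% and 16.2% of all genes, and 0 passed with the mutant. Trim28, the KRAB corepressor, measured 10.64, 11.48 and 11.35 untreated and 11.94, 12.03 and 11.94 treated with wild-type E12, a rise of 0.81 ± 0.19 (adjusted p = 0.00449). On the mutant arrays it lay between 10.88 and 11.32 in both states. Rbbp7, a histone chaperone of several repressor complexes, rose by 1.41 ± 0.25, and the DNA methyltransferase Dnmt3b by 1.03 ± 0.20. Cbx3, which encodes the heterochromatin protein HP1 gamma, fell by -0.75 ± 0.13 with wild-type E12. Its difference between the responses was 0.69 ± 0.19 (adjusted p = 0.0398), the only one of the list to pass. Setdb1 changed by 0.08 ± 0.13.

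With the mutant, 1 of the 22 was higher and 8 lower in untreated cells, and 1 higher and 12 lower after anti-IgM, beside 20.4% and 22.2% of all genes untreated and 21.3% and 22.2% after anti-IgM. The list median was -0.28 and -0.50, beside 0.01 and -0.01 for all genes. These counts and medians are those after quantile normalization, and they were not made under the other scalings. Chd3, a NuRD remodeler that binds the TRIM28 bromodomain region, measured 8.58, 8.78 and 8.79 against 6.56, 6.65 and 6.58 in untreated cells, a difference of -2.12 ± 0.11 (adjusted p = 3.26e-08), and -1.84 ± 0.11 after anti-IgM. Ehmt1, the histone methyltransferase GLP, differed by -1.38 ± 0.20 and -1.37 ± 0.20. The differences of Chd4 (-0.93 and -0.89) and Setdb1 (-0.35 and -0.34) did not pass under common median scaling or with the deposited values. Under common medians the calls of Morc3 untreated (adjusted p = 0.121) and Mta2 after anti-IgM (adjusted p = 0.109) were lost as well. The lean of the list between the forms thus depended on the scaling for several of its genes. For Trim28 the direction depended on the scaling. In untreated cells it was -0.05 ± 0.19 after quantile normalization, 0.77 with common medians and 0.66 with the deposited values, and after anti-IgM it was -0.82, 0.095 and -0.019 in that order. No direction between the forms is given for it.

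C2H2 genes of other families, taken by symbol (Zbtb, Zkscan, Zscan, Znf, Klf, Sp, Ikzf, Egr and Gfi1), gave 62 tested genes of 93. In the wild-type response 10 rose and 11 fell, and with the mutant 8 were higher and 20 lower in untreated cells and 7 higher and 20 lower after anti-IgM. Beside these stand 15.1% and 16.2% of all genes in the wild-type response, near the share of these families, and 20.4% and 22.2% untreated and 21.3% and 22.2% after anti-IgM between the forms. The difference of responses passed for 6 of them, 3 of each sign, beside 6.95% of all genes. Between the forms these families leaned to lower levels with the mutant too, so the lean was not particular to the Zfp genes. Their medians were -0.18 untreated and -0.13 after anti-IgM, beside -0.15 and -0.17 for the Zfp genes. Whether the Zfp genes differ from these families was not tested.

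E12 binds E-boxes, sequences of the form CANNTG, so promoter windows of 250 bases before to 50 after the transcription start were searched on both strands. RefSeq windows (GRCm38.p6) matched 177 of the 207 Zfp genes, with 216 windows in all. The form CAGGTG was found in 12.5% of them, against 20.2% of all windows in the table and 17.8% of those of tested genes. CAGCTG, which the general form includes as it does CAGGTG, was found in 16.2%, against 16.3% and 14.9%. Any CANNTG was found in 65.3%, against 72.3% and 64.5%. Among Zfp genes lower with the mutant in untreated cells CAGGTG was in 12.3% and CAGCTG in 23.1% of 65 windows, and among those higher in 7.69% and 15.4% of 26. A match is a description of the letters, not a bound site.

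The windows of 4 genes are shown as examples chosen after their values were seen: Zfp747, whose response differed between the forms, and Zfp386, Zfp3 and Zfp277, which were higher with the mutant in both states. They lie at chr7:127376001-127376300 (minus strand), chr12:116047474-116047773 (plus), chr11:70764197-70764496 (plus) and chr12:40445741-40446040 (minus) in that order, and CANNTG letters are in capitals. Zfp747, Zfp386 and Zfp3 each hold 2, and Zfp277 holds 0, as do both windows of Zfp131, which are not shown.
Zfp747 promoter: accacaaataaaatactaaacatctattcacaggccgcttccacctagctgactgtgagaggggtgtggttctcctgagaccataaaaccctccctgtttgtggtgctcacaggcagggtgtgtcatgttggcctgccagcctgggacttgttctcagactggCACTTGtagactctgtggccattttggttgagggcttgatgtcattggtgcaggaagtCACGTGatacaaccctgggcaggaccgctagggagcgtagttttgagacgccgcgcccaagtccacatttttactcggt
Zfp386 promoter: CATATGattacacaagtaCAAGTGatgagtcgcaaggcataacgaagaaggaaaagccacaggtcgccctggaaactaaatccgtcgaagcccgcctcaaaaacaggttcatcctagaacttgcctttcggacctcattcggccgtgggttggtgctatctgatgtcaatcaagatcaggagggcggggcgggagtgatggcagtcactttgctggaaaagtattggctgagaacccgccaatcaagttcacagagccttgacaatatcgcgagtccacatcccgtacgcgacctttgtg
Zfp3 promoter: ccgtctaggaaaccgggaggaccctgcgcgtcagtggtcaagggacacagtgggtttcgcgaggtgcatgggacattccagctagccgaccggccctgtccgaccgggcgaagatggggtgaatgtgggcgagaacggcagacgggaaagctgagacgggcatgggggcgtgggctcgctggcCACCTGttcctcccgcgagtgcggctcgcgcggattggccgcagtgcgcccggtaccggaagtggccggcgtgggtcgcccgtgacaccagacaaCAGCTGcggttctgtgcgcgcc
Zfp277 promoter: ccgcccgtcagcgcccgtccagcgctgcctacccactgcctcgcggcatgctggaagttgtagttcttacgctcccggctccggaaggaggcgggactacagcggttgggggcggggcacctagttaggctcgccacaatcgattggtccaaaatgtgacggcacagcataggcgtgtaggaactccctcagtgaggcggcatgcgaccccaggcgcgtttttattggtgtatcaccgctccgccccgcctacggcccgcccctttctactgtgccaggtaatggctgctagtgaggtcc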

How the data were processed

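Per the file headers and values, the deposited intensity values had been background-subtracted and normalized by the authors on a linear scale, apart for each E12 form (array medians of 6.93 or 6.94 and of 6.40). How this was done is not given in the sources used here. One more table, of earlier signals, has 12 columns that match no sample label, and these 12 were not used.

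A joint quantile normalization of the 12 arrays was followed by log2(value + 50), which shrinks the changes of dim genes. A probe was detected when it exceeded, on at least 3 arrays, a limit set from the values below 0 (normal background, p 0.01; 12.9 intensity units with wild-type and 15.6 to 15.7 with mutant E12). The brightest detected probe stood for a gene. Tests used limma 3.58.1 in R 4.3.3 (lmFit and eBayes, two-sided), with 4 group means in 1 fit and Benjamini-Hochberg adjustment over 10050 genes within each of 5 comparisons. Where no array of a group was above the limit, the fold is a bound against it. Array number limits the precision. On simulated data for the wild-type response (10050 genes), 22% of 100 changes of 0.5 and 88% of 100 changes of 1 log2 unit were recovered, with 7 false calls. No other gene was changed there, whereas 3148 genes were called in the real response, so this recovery need not hold for these data.

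Named genes were the 10 largest rises and falls past the threshold without overlap in each comparison, the tested members of the described Zfp lists, and up to 4 genes of the corepressor list per comparison with Trim28 and Setdb1. Zfp940 and Zfp760 were named after their values were seen, as neighbours. The members and lists were chosen with earlier results of these data known. The rule also called for a grouping by KRAB domain and finger number, which needs protein sequences and was not made.

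Same-numbered arrays deviated together across genes at r of 0.177 to 0.289 with wild-type E12, and differently numbered ones at -0.245 to 0.153. The main fit used no pairing, and the numbers in the titles served as a block only among the alternatives. With mutant E12 r was -0.046 to 0.608 for the same number and -0.757 to 0.491 for different numbers. Across forms the same number gave -0.276 to 0.073. Alternatives covered the offset, scaling, filter, probe choice, array weights, replicate blocks, samples in the fit and each array left out.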

Additional observations from a re-analysis of the deposited data

Results flagged for a closer look

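A test of the difference between the anti-IgM responses of the 2 E12 forms (limma's interaction term, mutant minus wild-type) picked out 3 Zfp genes and 1 corepressor gene. The difference was 1.28 ± 0.36 for Zfp608 (adjusted p = 0.0461), -0.77 ± 0.16 for Zfp747 (adjusted p = 0.0119), -0.71 ± 0.17 for Zfp593 (adjusted p = 0.0214) and 0.69 ± 0.19 for Cbx3 (adjusted p = 0.0398). Zfp608 and Cbx3 lie close to the threshold, Zfp593 was measured close to the detection limit, and the part of the other cell markers in these values was not tested.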

How the results depend on the processing

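Array weights moved most counts of called Zfp genes: 77 in the wild-type response (51.7% of all genes), 6 in the mutant response (7.13%) and 23 for the difference of responses (23.2%). The replicate block within each form gave 5 for the difference of responses (14% of all genes) and 41 for the wild-type response (39.1%). It ended no call of a named gene. A block shared by all 4 groups gave 31, 0, 83, 76 and 3 calls in the order of the report. Of all genes 31.3%, 0.249%, 42.7%, 43.4% and 7% were called there. Leaving out 1 array gave 20 to 35 calls in the wild-type response (22.8% to 33.5% of all genes), with 20, 21 and 21 without treated wild-type replicates 1, 2 and 3. It gave 0 in the mutant response (0.0199% to 0.567%) and 65 to 88 between the forms untreated (33.7% to 44.6%). Between them after anti-IgM it gave 58 to 88 (35.6% to 47%), and for the difference of responses 1 to 3 (3.71% to 8.05%).

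Of 101 called values of named genes, 58 kept their call and direction under every alternative, 43 lost the call under at least 1, and 4 turned sign. Averaging a gene's probes turned Zfp207 to -0.087 untreated and -0.012 after anti-IgM and Zfp326 to 0.051 untreated. Common median scaling and the deposited values gave 0.70 and 0.59 for Zfp330 after anti-IgM and 0.77 and 0.66 for Trim28 untreated, and common medians gave 0.095 for Trim28 after anti-IgM. The difference of responses of Zfp608 lost its call with an offset of 16 (adjusted p = 0.0799) or 100 (0.0613), common medians (0.0771), the deposited values (0.074) or no detection filter (0.0532), and without 9 of the 12 arrays in turn (up to 0.111). That of Zfp593 lost it without untreated mutant replicate 2, treated wild-type replicate 1 or untreated wild-type replicate 2 (0.0596, 0.0696 and 0.0568). That of Cbx3 lost it with an offset of 16 (0.067), common medians (0.0965) or the deposited values (0.0884), and without 10 arrays in turn (up to 0.107). The cause was not tested. Zfp genes near the detection limit have changes shrunk by the offset, so small changes of dim genes can be missed.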
